A study of Mus musculus with 12 samples.

Results

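The adhesion G protein-coupled receptors described here are Adgre5, Adgrg1, Adgrg3, Adgrg6, Adgrl1 and Adgrl2, taken by symbol from the deposited gene table. These 6 were found among its 5545 complete rows, and 22 further rows of this receptor family were examined beside them. Female C57BL/6 mice (C57BL/6J in the study's methods) received either the standard chow RM1 (lean mice) or, for 12 weeks after weaning, the obesogenic diet 824018, which provides 45% AFE fat, together with condensed milk (obese mice). From the liver of each of 3 lean and 3 obese mice, lineage-negative NK1.1+ cells were sorted into NK cells, which carry CD49b and not CD49a, and type 1 innate lymphoid cells (ILC1), which carry CD49a and not CD49b. This gave 12 bulk RNA-seq libraries in 4 groups of 3, each made from 2 ng of total RNA. A library is named below by its group and the number 25, 26 or 27 in its label, and the NK cell and ILC1 libraries of one diet that share a number come from the same mouse.

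Adhesion receptors carry a long extracellular region on a membrane-spanning core. In many of them this region is cut during synthesis and stays attached to the core, and its removal can expose a short tethered stretch that activates the receptor. They bind proteins on neighbouring cells and in the matrix, and signal through heterotrimeric G proteins. Adgre5 encodes CD97, a receptor of most leukocytes that binds CD55. Adgrg1 encodes GPR56, which in human blood marks cytotoxic NK cells and T cells. Adgrg3 encodes GPR97, which is found in haematopoietic cells. Adgrl1 and Adgrl2 encode latrophilins, best known from synapses, and Adgrg6 encodes GPR126, which is needed for myelination by Schwann cells.

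The libraries held 1666637 to 2826766 counts in the genes analysed here, and 1948 to 3292 genes with a count. Levels are given as CPM, the count of a gene scaled to a common library total, with TMM scaling between libraries. Of the labelled cell types, the 2 of 9 NK cell markers in the table (Cma1 and Cx3cr1) summed to 3108 to 5870 CPM in NK cells and 52.0 to 1611 CPM in ILC1. The 3 of 6 ILC1 markers (Cxcr6, Cxcr3 and Cd200r1) summed to 161 to 989 CPM in NK cells and 4533 to 17313 CPM in ILC1. Both the 1611 and the 4533 CPM were in Obese ILC1 26. The other ILC1 libraries had 52.0 to 412 CPM of the NK cell markers and 10373 to 17313 CPM of the ILC1 markers. Other cell types' markers were not spread evenly. Obese ILC1 26 stood apart, with 141751 CPM of 9 hepatocyte markers against 229 and 627 CPM in the other obese ILC1 libraries. It also held 22520 CPM of 9 Kupffer cell and macrophage markers, 8875 CPM of 4 endothelial markers, 7801 CPM of 5 B cell markers and 2062 CPM of 3 neutrophil markers. Lean NK 27 had the fewest genes with a count, 1948, and no count of any endothelial or B cell marker. Obese ILC1 25 had the next fewest, 2014, and 5 counts of Creb1 against 446 to 1779 in the other libraries. Where leaving out Obese ILC1 26 or Lean NK 27 changed the call of a member, the value without it is given as well. Some other values that moved are given too. In bulk samples such as these, fewer cells of a type and less RNA per cell cannot be told apart.

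**Figure D1:**
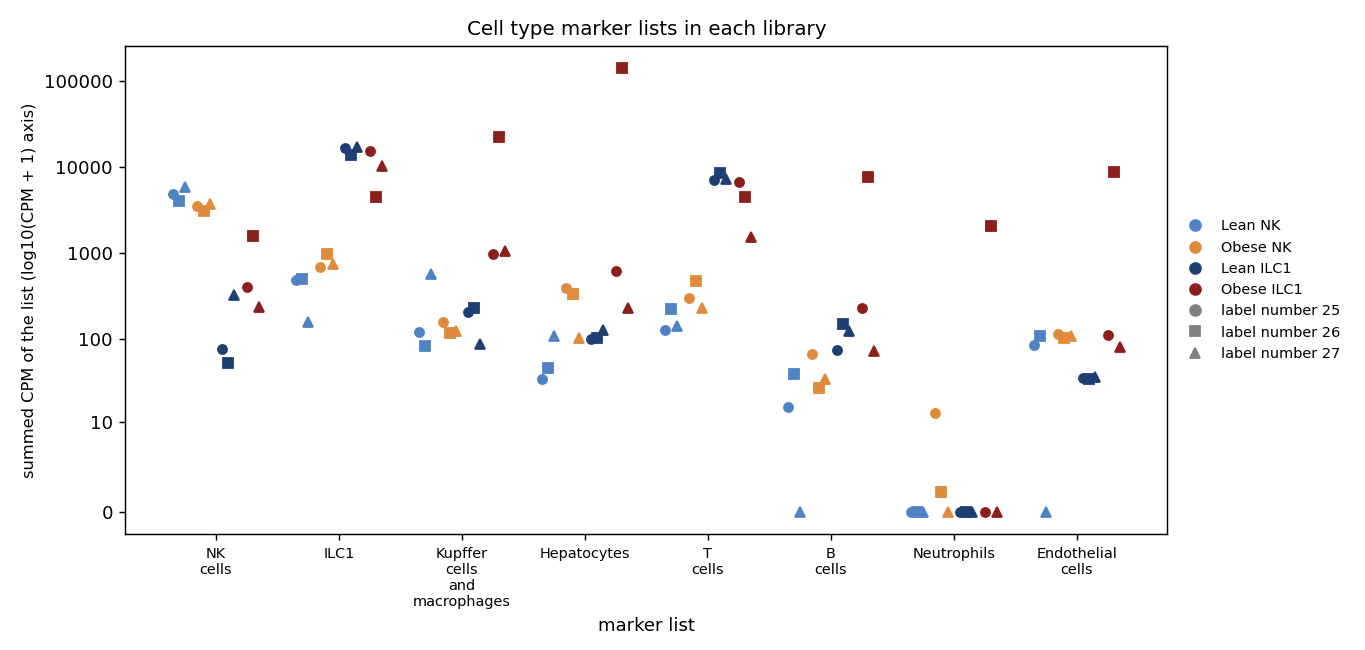
Summed CPM of 8 cell type marker lists (log axis) in each of the 12 libraries, coloured by group, with the point shape giving the label number. Obese ILC1 26, the dark red square, lies above every other library for the Kupffer cell, hepatocyte, B cell, neutrophil and endothelial lists.

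On chromosome 8 of GRCm38 lie 4 of the 6 genes. Adgre5 spans chr8:83723251-83741326 on the minus strand and Adgrl1 spans chr8:83900105-83941954 on the plus strand, 158778 bases away with no protein-coding gene between them. Adgrg1 (chr8:94974751-95014217) and Adgrg3 (chr8:95017692-95045250) follow each other on the plus strand, 3474 bases apart with no gene between them. Adgrg6 spans chr10:14402583-14545659 and Adgrl2 spans chr3:148815583-148990555, both on the minus strand. In the annotation Adgre5 overlaps the coding gene Ddx39 and Adgrl1 overlaps Gm10644, each on the other strand, and Adgrg6 and Adgrl2 each overlap an antisense gene. The strand setting of the counting is not given in the sources used here, so reads shared with these partners cannot be told apart.

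The 250 bases before the annotated start are shown for Adgrg1 and Adgrg3, because these neighbours had unlike levels, with Adgrg3 called higher in ILC1 and Adgrg1 near 0 in most libraries. The sequences are from RefSeq (GRCm38.p6, plus strand), which held such windows for 5 of the 6 genes. The RefSeq start of Adgrg1 used here lies downstream of the GENCODE start, so its window lies inside the span given above. The cores searched on both strands were GGTGTGA of T-box factors, TGTGGT of RUNX factors and CAGGAAG of ETS factors, and matches are in capitals. No match overlapped another.
Adgrg1, chr8:94976859-94977108: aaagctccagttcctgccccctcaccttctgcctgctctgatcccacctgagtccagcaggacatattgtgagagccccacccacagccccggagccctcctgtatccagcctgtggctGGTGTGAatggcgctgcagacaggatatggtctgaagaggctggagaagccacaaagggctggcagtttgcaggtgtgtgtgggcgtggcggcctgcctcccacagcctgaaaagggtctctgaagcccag
Adgrg3, chr8:95017442-95017691: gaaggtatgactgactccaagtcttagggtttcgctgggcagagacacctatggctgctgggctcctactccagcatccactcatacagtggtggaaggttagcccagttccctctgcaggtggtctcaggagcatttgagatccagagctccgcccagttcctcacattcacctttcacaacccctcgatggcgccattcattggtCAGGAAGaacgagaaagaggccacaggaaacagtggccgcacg
The first Adgrg1 window held 1 T-box core, 131 to 125 bases before the start, and a second annotated Adgrg1 start had no match in its window. The Adgrg3 window held 1 ETS core, 43 to 37 bases before the start. No RUNX core was in these windows. Over 32851 windows of the same length, the RUNX core occurred in 14%, the ETS core in 10.8% and the T-box core in 3.33%, so the matches describe these windows and no more.

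Adgre5 was at a like level in every group. Its level was 1562, 1475 and 1578 CPM in lean NK cells 25, 26 and 27, and 1710, 1388 and 1842 CPM in obese NK cells. In ILC1 it was 1694, 1855 and 1582 CPM in lean mice and 2167, 1399 and 978 CPM in obese mice. The highest of all 12 libraries was 2.21 times the lowest, and both of these were obese ILC1 libraries. Averaged over the diets, the log2 difference of ILC1 from NK cells was 0.016 ± 0.174 (SE), with a 95% interval of the fold from 0.775 to 1.32 (edgeR quasi-likelihood adjusted p = 0.988). The interval of the obese to lean fold ran from 0.735 to 1.56 in NK cells and from 0.608 to 1.29 in ILC1. In lean mice all ILC1 libraries were above all NK cell libraries by CPM, but the lowest and highest of them were 1582 and 1578, and the groups overlapped by the authors' normalized counts, with 3150 in the lowest ILC1 library and 3186 in the highest NK cell library.

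Adgrg3, the GPR97 gene, gave the clearest separation of the cell types among the members. Lean NK cells had 24, 11 and 1 counts (11.4, 5.73 and 0.474 CPM) and obese NK cells 18, 95 and 14 counts (7.29, 32.6 and 5.41 CPM). Lean ILC1 had 279, 363 and 192 counts (149, 183 and 99.4 CPM) and obese ILC1 367, 418 and 324 counts (228, 349 and 118 CPM). Every ILC1 library was above every NK cell library. Averaged over the diets Adgrg3 was 19.2-fold higher in ILC1 (log2 4.26 ± 0.75 SE, edgeR quasi-likelihood adjusted p = 0.00671). The call held without any 1 of the 12 libraries (log2 3.98 to 4.87), with the mouse as a block (log2 4.72, adjusted p = 0.0226), and without Lean NK 27 and Obese ILC1 26 together (log2 3.77, adjusted p = 0.00509). Within one diet it was not called, at log2 4.60 ± 1.08 SE in lean mice (adjusted p = 0.0529) and 3.93 ± 1.04 SE in obese mice (adjusted p = 0.104). Without those same libraries it was called in both, at 4.03 (adjusted p = 0.0449) and 3.499 (adjusted p = 0.0397).

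Adgrg3 is also a gene of neutrophils, and the lineage cocktail of the sort included Gr1. The 3 of 6 neutrophil markers in the table, Camp, Csf3r and Cxcr2, were all at 0 counts in the 3 lean ILC1 libraries and in Obese ILC1 25 and 27, where Adgrg3 had 192 to 367 counts. In Obese ILC1 26, which had the highest Adgrg3 level, they summed to 2062 CPM. The part of neutrophils in the Adgrg3 difference was not tested.

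Adgrl1, a latrophilin gene, was not called in any comparison by edgeR with all libraries. Lean NK cells had 32.4, 40.1 and 0.474 CPM, obese NK cells 44.6, 32.6 and 55.3 CPM, lean ILC1 276, 313 and 116 CPM and obese ILC1 345, 41.8 and 97.01 CPM. Only Obese ILC1 26 of the 6 ILC1 libraries lay within the range of the NK cells. The log2 difference averaged over the diets was 2.57 ± 0.80 SE (edgeR quasi-likelihood adjusted p = 0.0942). Without Lean NK 27 and Obese ILC1 26 it was 2.49 and was called (adjusted p = 0.00764), and DESeq2 called it with all libraries at 2.58 (adjusted p = 0.0103). In lean mice the log2 difference was 3.27 ± 1.17 SE (adjusted p = 0.232) and in obese mice 1.87 ± 1.11 SE (adjusted p = 0.555). Without Obese ILC1 26 the value in obese mice was 2.31 (adjusted p = 0.37), and without Obese ILC1 25, the highest of that group, it was 0.65 (adjusted p = 0.917).

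The T cell marker list was also higher in ILC1, with 3 of the 6 tested called higher averaged over the diets (Cd3d, Cd3e and Cd3g). All 8 markers of the list are in the table, and they summed to 130 to 483 CPM in NK cells, 7140 to 8571 CPM in lean ILC1 and 1563 to 6779 CPM in obese ILC1. Most of the lean ILC1 sum was Cd3g, with 12045 to 13275 counts, while Cd8a and Cd8b1 were at 0 in all lean libraries. Cd4 had 0 to 189 counts in lean ILC1. The part of T cells in the differences of Adgrg3 and Adgrl1 was not tested.

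Adgrl2, another latrophilin gene, had counts in every NK cell library and none in lean ILC1. Its counts were 31, 16 and 32 in lean NK cells, 40, 15 and 18 in obese NK cells and 0 in each of the lean ILC1 libraries. Obese ILC1 had 1, 164 and 0 counts, with all but 1 of these in Obese ILC1 26. Against a floor of 3 counts per library, Adgrl2 was at least 8.21-fold lower in lean ILC1 than in lean NK cells, and the edgeR quasi-likelihood test did not call the difference (adjusted p = 0.259). Averaged over the diets the log2 difference was -2.75 ± 1.56 SE and was not called (adjusted p = 0.419). It was called without Obese ILC1 26 alone (-6.34, adjusted p = 0.0295) and without that library and Lean NK 27 (-6.29, adjusted p = 0.0274). The 4 endothelial markers in the table, which include the adhesion receptor genes Adgrf5 and Adgrl4, summed to 8875 CPM in Obese ILC1 26. They summed to 0 counts in Lean NK 27, where Adgrl2 had 32 counts, and to 86.8 to 116 CPM in the other NK cell libraries. Most of these latter sums was Adgrl4, at 83.6 to 106 CPM, and in Lean NK 25 the other markers had no count. The part of endothelial cells in the Adgrl2 counts was not tested.

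Adgrg1 and Adgrg6 were too low to be tested. Adgrg1, the GPR56 gene, had 0 counts in 5 of 6 NK cell libraries and 1 count in Obese NK 25. It had 22, 9 and 0 counts in lean ILC1 and 0, 44 and 0 counts in obese ILC1. A count of 0 allows up to 3 counts, or 1.03 to 1.56 CPM in the NK cell libraries. In lean mice the mean of ILC1 was 3.68 times that floor in NK cells, which is a lower bound of the difference, with 2 of 3 libraries above the floor. Without Lean ILC1 25 this bound was 1.54-fold. Adgrg6 had 5 counts in Obese ILC1 26 and 0 in every other library.

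**Figure D2:**
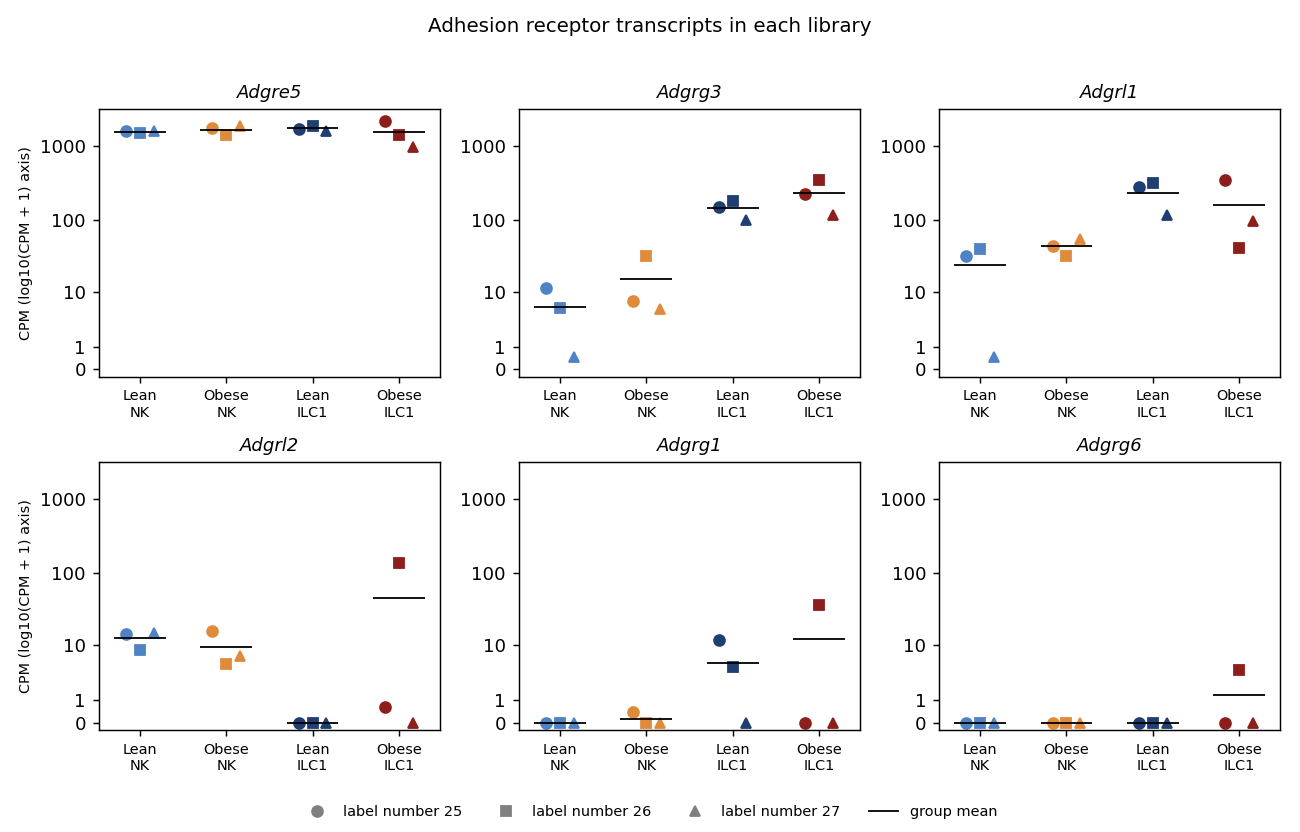
CPM (log10(CPM + 1) axis) of the 6 members in each of the 12 libraries by group, with the point shape giving the label number and the line the group mean. Adgre5 stays between 978 and 2167 CPM, every ILC1 library exceeds every NK cell library for Adgrg3, and the group mean of Adgrl2 in obese ILC1 is set by Obese ILC1 26.

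Of the 4 members tested, 1 was called higher in ILC1 averaged over the diets, Adgrg3, against 3.15% of the 2606 genes tested (82 genes), and 0 were called lower, against 1.19% (31 genes). DESeq2 also called 0 members lower, and 0 members were lower at an unadjusted p under 0.05. Every ILC1 library was above every NK cell library for 1 member, Adgrg3, against 2.88% of genes, and below for 0, against 2.88%. In lean mice edgeR's quasi-likelihood test called 0 members higher, against 1.5% of genes, and 0 lower, against 0.806%. Over all genes 167 were higher and 179 lower there at an unadjusted p under 0.05, and DESeq2 called 94 higher and 57 lower, with 2 members among the higher. In lean mice 3 members had every ILC1 library above every NK cell library, against 13.6%, and 1 had every library below, Adgrl2, against 11.1%. In obese mice edgeR's quasi-likelihood test called 0 members higher, against 0.537% of genes, and 0 lower, against 0.384%. Over all genes 225 were higher and 144 lower there at an unadjusted p under 0.05, and DESeq2 called 107 higher and 47 lower, with Adgrg3 the 1 member among them. In obese mice 1 member, Adgrg3, had every ILC1 library above every NK cell library, against 8.6%, and 0 had every library below, against 15.5%. A gene that passed the filter on low counts through the group where it is high had to differ, so these shares describe the members and are no support for a pattern. With the mouse as a block Adgrg3 remained called, among 32 genes called higher.

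The question the series was made for is how obesity changes these cells, and no member was called for it. In NK cells edgeR's quasi-likelihood test called 0 members and 0 of 2606 genes (0%) in either direction. At an unadjusted p under 0.05 it gave 25 genes higher and 6 lower, and DESeq2 called 8 higher and 0 lower. Every obese NK cell library was above the lean ones for 0 members, against 11.6% of genes, and below for 0, against 5.53%. The log2 differences were 1.35 ± 0.96 SE for Adgrg3, 0.86 ± 1.09 SE for Adgrl1 and -0.44 ± 1.94 SE for Adgrl2. All 3 genes overlapped between lean and obese NK cells. Without Lean NK 27 the log2 difference of Adgrl1 was 0.29.

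In ILC1 edgeR's quasi-likelihood test also called 0 members and 0 genes (0%) for obesity, with 197 genes higher and 80 lower at an unadjusted p under 0.05, while DESeq2 called 57 higher and 20 lower. The log2 differences were 0.69 ± 0.93 SE for Adgrg3 and -0.54 ± 1.07 SE for Adgrl1, and both overlapped between lean and obese ILC1. Without Obese ILC1 26 they were 0.27 for Adgrg3 and -0.086 for Adgrl1. Every obese ILC1 library was above the lean ones for 0 members, against 7.21% of genes, and below for 0, against 8.71%. Adgrl2 had a fitted log2 difference of 9.60 ± 2.99 SE (adjusted p = 0.287), which was 2.54 without Obese ILC1 26. The test of whether obesity differed between ILC1 and NK cells called no member and no gene. For this interaction 89 genes were higher and 66 lower at an unadjusted p under 0.05, and DESeq2 called 6 higher and 15 lower.

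**Figure D3:**
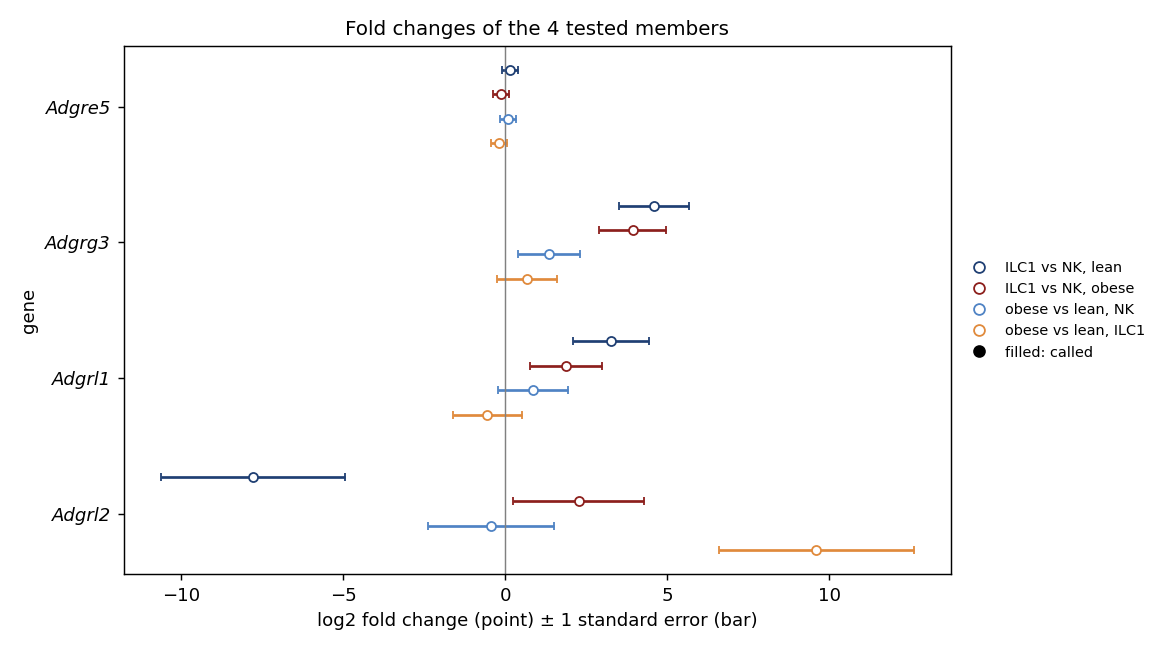
Log2 fold changes (points) with 1 standard error (bars) of the 4 tested members in 4 comparisons, from the edgeR model of all 12 libraries, with filled points for called differences. Adgre5 lies near 0 in all 4, no point is filled, since no member was called within one diet or for obesity, and Adgrl2 has the widest bars.

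Per kilobase of exon, Adgre5 was the highest member in all 4 groups, with group means of 403 to 455 CPM per kilobase. It exceeded both Adgrl1 and Adgrg3 in 12 of 12 libraries. Adgrl1 and Adgrg3 were neighbours that could not be ordered, since Adgrl1 was the higher in 7 of 12 libraries and their ranges overlapped in both ILC1 groups, at means of 27.4 and 20.8 CPM per kilobase in lean ILC1 and 18.8 and 33.5 in obese ILC1. Adgrl2 and Adgrg3 also overlapped in NK cells, at means of 0.899 and 0.852 in lean mice.

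The other 22 family genes in the table were mostly silent or low. Of these, 11 stayed under 10 counts, 6 of them with no count in any library, and 11 reached 10 counts in at least 1 library, namely Adgra2, Adgra3, Adgrb2, Adgre1, Adgre4, Adgrf5, Adgrg7, Adgrl3, Adgrl4, Adgrv1 and Celsr1. Adgre1, which encodes the macrophage antigen F4/80, had 0 counts in each lean NK cell library, 0, 30 and 62 in lean ILC1 and 520, 2119 and 216 in obese ILC1. It was called higher in ILC1 averaged over the diets (log2 8.28 ± 1.62 SE, edgeR quasi-likelihood adjusted p = 0.0199). Adgre4, a myeloid relative, was called as well (log2 6.88 ± 1.65 SE, adjusted p = 0.0331). Its counts were 1, 0 and 1 in lean NK cells and 32, 2 and 1 in obese NK cells. Lean ILC1 had 127, 0 and 0 counts of it and obese ILC1 638, 3184 and 696. Within one diet edgeR's quasi-likelihood test with all libraries called neither Adgre1 nor Adgre4. Without Obese ILC1 26 Adgre1 remained called (log2 7.36, adjusted p = 0.0295) and Adgre4 did not (log2 5.97, adjusted p = 0.058). Without Lean NK 27 Adgre1 again remained called (log2 8.26, adjusted p = 0.0442) and Adgre4 did not (log2 7.03, adjusted p = 0.0876), and with the mouse as a block neither was called (adjusted p = 0.165 and 0.273). The 9 Kupffer cell and macrophage markers, among them Adgre1, summed to 985 to 22520 CPM in obese ILC1. In the other groups they summed to 84.4 to 574 CPM. In Obese ILC1 25, at 985 CPM, 5 of them had 0 counts, while Adgre1 reached 322 CPM and Cd68 462 CPM. The part of Kupffer cells and macrophages in the differences of Adgre1 and Adgre4 was not tested.

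Adgrl4, an endothelial receptor gene, had 182, 164 and 0 counts in lean NK cells, 227, 244 and 275 in obese NK cells, 36, 40 and 1 in lean ILC1 and 0, 1282 and 130 in obese ILC1. Adgrf5, another gene of endothelium, had 975 counts in Obese ILC1 26 and at most 7 elsewhere. Adgrb2, a brain angiogenesis inhibitor gene, had 21, 35 and 184 counts in lean NK cells and 0 in each lean ILC1 library. Against the floor of 3 counts per library, it was at least 24.8-fold lower in lean ILC1 than in lean NK cells. The difference in lean mice was not called (edgeR quasi-likelihood adjusted p = 0.0992). Without Lean NK 27, which held the 184 counts, the bound was 9.08-fold and the gene was not called (adjusted p = 0.208), while DESeq2 called it with all libraries (log2 -8.68, adjusted p = 0.000273). In obese mice the cell types overlapped, with 4, 40 and 52 counts of Adgrb2 in NK cells and 0, 2 and 24 in ILC1. The log2 difference there was -1.72 ± 1.63 SE and was not called (edgeR quasi-likelihood adjusted p = 0.785).

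**Figure D4:**
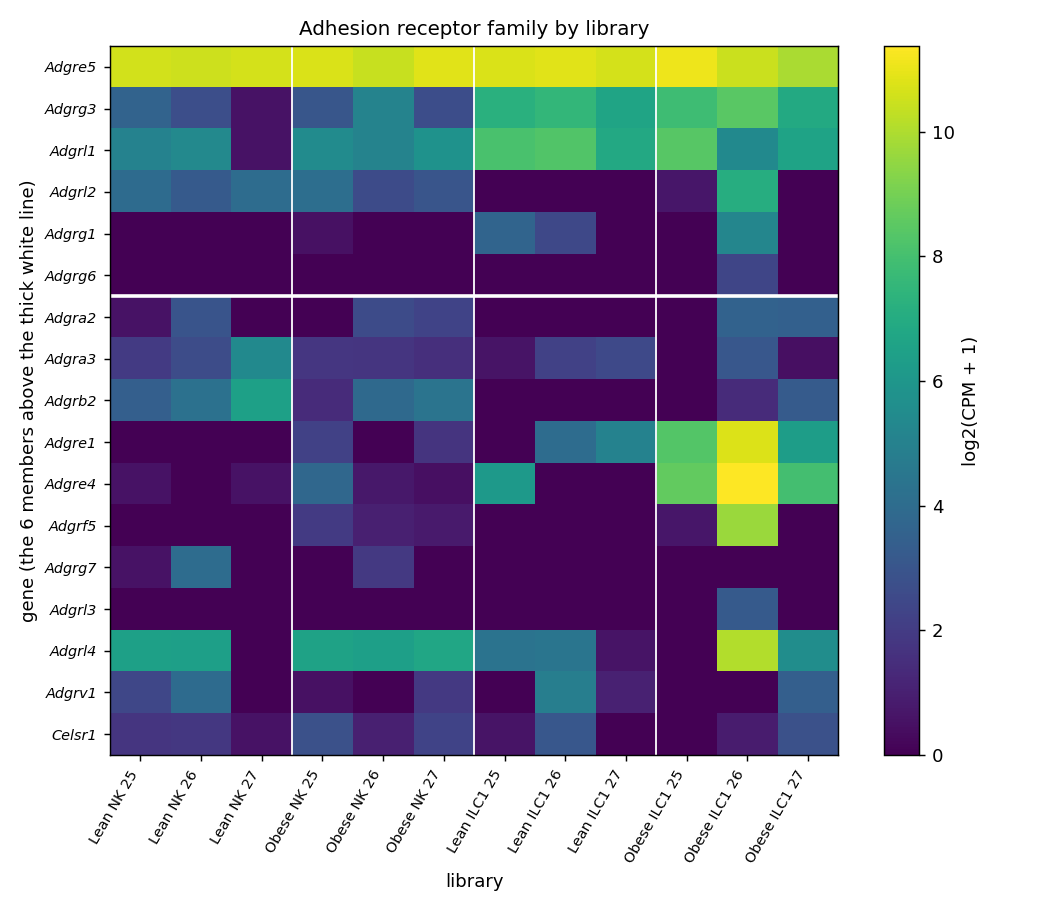
Heat map of log2(CPM + 1) for the 6 members, above the thick white line, and the 11 other family genes that reached 10 counts, in the 12 libraries. Adgre5 is high throughout, Adgrg3 and Adgrl1 are higher in most ILC1 libraries, and Adgre1, Adgre4, Adgrf5 and Adgrl4 reach their highest values in Obese ILC1 26.

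Of the 23 listed ligands and membrane partners of these receptors, 11 are in the table and 7 were tested. Cd81, a tetraspanin that associates with GPR56, was called higher in ILC1 averaged over the diets (log2 5.003 ± 1.01 SE, edgeR quasi-likelihood adjusted p = 0.0144). Its level was 47.9, 98.5 and 24.8 CPM in lean ILC1 and 414, 4720 and 136 CPM in obese ILC1, against 7.41 ± 7.30 (SD, n = 3) in lean and 13.1 ± 1.94 in obese NK cells. Without Obese ILC1 26 it was called at log2 3.65 (adjusted p = 0.0301), and with the mouse as a block it was not called (log2 4.49, adjusted p = 0.0513). Cd9, another tetraspanin, was called lower in ILC1 of lean mice (log2 -1.36 ± 0.24 SE, adjusted p = 0.0115), at 1082 ± 112 CPM against 2770 ± 100 CPM in NK cells, and this call was lost with the mouse as a block (adjusted p = 0.0765). Averaged over the diets Cd9 differed by under 2-fold and was not called (log2 -0.86 ± 0.17 SE, adjusted p = 0.0112), and without Obese ILC1 26 it was called lower (log2 -1.07, adjusted p = 3.45e-05). Cd55, the ligand of CD97, was at 256 ± 114 CPM in lean NK cells and 27.6 ± 20.6 CPM in lean ILC1, and was not called (log2 -3.21 ± 1.57 SE, adjusted p = 0.432). In obese ILC1 it ranged from 0.62 to 1767 CPM, with the highest value in Obese ILC1 26. The remaining listed partners were not called in any comparison. Of 28 genes of the G protein and arrestin route, 19 are in the table and 11 were tested, and none was called in any of the 6 comparisons by edgeR's quasi-likelihood test. The 3 with the highest mean counts were Akap13, an anchoring protein of protein kinase A, Adcy7, an adenylyl cyclase, and Creb1, a transcription factor of the cAMP response. Averaged over the diets their log2 differences of ILC1 from NK cells were 0.69 ± 0.22 SE for Akap13 (edgeR quasi-likelihood adjusted p = 0.102), 0.13 ± 0.21 SE for Adcy7 (adjusted p = 0.866) and -0.86 ± 0.67 SE for Creb1 (adjusted p = 0.611). Creb1 was at 3.1 CPM in Obese ILC1 25, against 351 to 604 CPM in the other ILC1 libraries.

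The genes whose log2 CPM over the 12 libraries followed each member most closely were found by the root mean square difference after centring each gene on its mean. For Adgre5 they were Agtrap, at 0.146, and Cers5, at 0.188. Adgrl1 was followed by Acsbg1, at 0.415, and 2010300C02Rik, at 0.56. For Adgrg3 the nearest were Chst15, at 0.721, and Cd3e, at 0.893. Adgrl2 had the loosest neighbours, Apobec2 at 0.921 and Adcy9 at 1.19. These distances are on the log2 scale, and the 12 points share mice, depth and the libraries that stand apart.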

How the data were processed

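The authors deposited 1 table with whole-number read counts per gene and library, and a score per library, which is the counts divided by 1 factor per library and rounded. Per the labels' processing notes, mm10, bcl2fastq, Trimmomatic, STAR and featureCounts were used. The study names SARTools, while its method, the annotation and the strand setting are not given in the sources used here. Rows run alphabetically to Cyp26b1. The 1 incomplete row was dropped and later genes were not analysed here, so library totals understate the depth.

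The tests used edgeR 4.0.16 under R 4.3.3 (TMM, filterByExpr, glmQLFit and glmQLFTest, 1 model of the 4 groups), with Benjamini-Hochberg adjustment over the 2606 genes tested. Called genes had an adjusted p below 0.05 and differed by over 2-fold. A standard error is the log2 fold change over the root of the F statistic, and log2 CPM used a prior count of 2. Intervals and floors cover the spread between libraries or counting error only, and 3 libraries against 3 cannot give an exact permutation p below 0.1.

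NK cells and ILC1 of a mouse are paired by the labels. Their deviations from the group means correlated at -0.076 to 0.141 over 6 mice, and the mouse was used as a block in an alternative fit. Other alternatives were DESeq2 1.42.0, edgeR with the DESeq2 size factors, all genes without the low-count filter, the compared libraries alone, the authors' normalized score, and each library left out. Leaving out Lean NK 27 and Obese ILC1 26 together, and single libraries from the fold bounds, was chosen after seeing the data. The fit was also run on counts simulated without any effect of the mouse, for part of the comparisons only, and no result here rests on that run.

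The members, gene lists and motifs were chosen with earlier results of these data known, and 1 of the 7 members is not reported here. Named genes are the members, family genes reaching 10 counts, list genes called in any comparison or among the 3 highest by mean count, and the 2 most alike per member. Gene positions and exon lengths are from GENCODE M21 (GRCm38), matched by symbol.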

Additional observations from a re-analysis of the deposited data

How the results depend on the processing

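Adgrg3 was called higher in ILC1 averaged over the diets under every alternative run. Under DESeq2, calls in ILC1 against NK cells were 149 higher and 73 lower averaged over the diets, 94 and 57 in lean mice and 107 and 47 in obese mice, with 2 members called higher on average, 2 in lean and 1 in obese mice. For obesity DESeq2 called 8 genes higher in NK cells, 57 higher and 20 lower in ILC1, and 6 higher and 15 lower for the interaction. With the mouse as a replicate block, the calls were 32 higher and 14 lower averaged over the diets, 16 and 5 in lean mice and 0 and 0 in obese mice. The block turned Adgre5 to -0.016 on average and Adgrl2 to -3.11 in obese mice, and changed no member's call. The block on the label number, which joins different mice, changed no call for obesity. With the compared libraries alone, the calls over all genes in obese mice were 0 higher and 0 lower.

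Without Lean NK 27 and Obese ILC1 26 together, 70 genes were called lower, and 2 members higher and 1 lower (Adgrl2), averaged over the diets. In lean mice 63 genes were called higher, 38 lower and 1 member higher, and in obese mice 65 higher, 42 lower and 1 member higher. For obesity in ILC1 3 genes were called higher and 2 lower, and Adgrl2 in ILC1 against NK cells of obese mice turned to -4.88.

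Leaving out 1 library at a time tested more genes and gave 40 to 114 genes called higher and 22 to 47 lower averaged over the diets, 19 to 29 and 6 to 14 in lean mice, and 2 to 42 and 3 to 24 in obese mice. The highest of these counts averaged over the diets and in obese mice were those without Obese ILC1 25. Members called lower ranged from 0 to 1 on average. For obesity 0 to 1 genes were called higher in NK cells, 0 to 4 higher and 0 to 2 lower in ILC1, and 0 to 1 lower for the interaction. Directions turned within these ranges for Adgre5, at -0.16 to 0.13 on average, -0.47 to 0.11 in obese mice, -0.0012 to 0.22 for obesity in NK cells and -0.53 to 0.055 in ILC1. They also turned for Adgrl2 in obese mice, at -4.85 to 2.92, and for the Adgrg3 interaction, at -1.58 to 0.56. The cause of these changes was not tested. At this depth Adgrg1 and Adgrg6 were too low to be tested, and Adgrg3, Adgrl1 and Adgrl2 fell to 0 or 1 counts in some libraries.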
